A study of Arabidopsis thaliana with 8 samples.

Results

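The auxin machinery of the rosette leaf was followed through 58 genes out of the 27634 rows of the deposited tables. They were chosen by locus identifier from the gene families named here and fall into 8 classes. These are 6 genes of auxin synthesis (TAA1, TAR2, YUC1, YUC2, YUC4 and YUC6), 4 of auxin inactivation (GH3.3, GH3.5, GH3.6 and DAO1), 3 influx carriers (AUX1, LAX2 and LAX3), 3 PIN efflux carriers (PIN3, PIN4 and PIN7), 2 ABCB transporters, 5 TIR1/AFB receptors, 24 Aux/IAA repressors and 11 auxin response factors (ARFs). RNA was taken from rosette leaves of 24-day-old Arabidopsis thaliana seedlings, after 11 days on plates and 13 days on soil, and sequenced after capture on oligo(dT) beads. There were 4 libraries from DLK2-OE1, named for overexpression of DLK2, and 4 from the wild type (WT). DLK2 belongs to the same small family of α/β hydrolases as the strigolactone receptor D14. DLK2-OE1 is a single line, and what promoter drives its DLK2 expression was not stated in the labels, so effects of DLK2 and other differences between this line and WT cannot be told apart. Whether each replicate was its own plant or a pool is not in the labels, and p-values cover only the spread among libraries, which may be technical.

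Auxin (indole-3-acetic acid) is made from tryptophan by TAA1-type aminotransferases followed by YUC monooxygenases, is joined to amino acids by GH3 enzymes, and is moved between cells by influx and efflux carriers. Inside the nucleus it acts as a glue between a TIR1/AFB F-box protein and the degron of an Aux/IAA repressor, which is then destroyed, so that ARF transcription factors are released. Several Aux/IAA and GH3 genes are themselves switched on by auxin, and in leaves the same machinery sets vein pattern, blade outgrowth and cell expansion.

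Library totals ranged from 18461205 to 19385026 counts in DLK2-OE1 and from 18097159 to 22139801 counts in WT. DLK2 (AT3G24420) had 120, 150, 137 and 145 CPM (counts normalised to library size) in DLK2-OE1 replicates 1 to 4, against 60.4, 73.5, 85.1 and 73.4 CPM in WT replicates 1 to 4. All 4 DLK2-OE1 libraries lay above every WT library, with a difference of 0.92 on the log2 scale (SE 0.12; adjusted p = 0.0178). Adjusted p-values come from the quasi-likelihood test of edgeR, corrected over all genes tested by the Benjamini-Hochberg method, and 0.05 is the threshold. Leaving out WT replicate 1, WT replicate 3 or DLK2-OE1 replicate 1 put DLK2 above that threshold, at 0.067, 0.0548 and 0.0574. The counts do not separate the endogenous gene from a transgene. DLK2-OE1 replicates 1 and 2 stood apart in several marker lists. The summed FPKM (fragments scaled to gene length and library size) of 12 cell cycle genes was 98.6, 144, 35.4 and 24.9 in the DLK2-OE1 libraries, against 11.6 to 21.4 in WT, and that of 8 xylem genes was 92.1, 150, 46.9 and 30.6 in DLK2-OE1, against 10.9 to 36.3 in WT. By edgeR's test, 4 of 12 cell cycle genes and 3 of 7 tested xylem genes rose, where 2.12% of all genes did. All 12 and all 7 had positive log2 fold changes and an unadjusted p under 0.05 in edgeR, where 26.3% of all genes had such a p. DESeq2 called 12 and 5 of them higher, where it called 14.4% of all genes, and limma-voom called 0. Of the 10 shoot apex and flower genes 4 were tested, of which STM, KNAT1 and KNAT6 rose and SEP3 fell. Mean FPKM in DLK2-OE1 and WT were 8.76 and 0.0912 for STM, 8.27 and 0.062 for KNAT1, and 4.33 and 0.243 for KNAT6. SEP3 averaged 4.2 FPKM in DLK2-OE1 and 21.7 FPKM in WT. The log2 fold changes were 6.17, 6.63, 3.88 and -2.51 in that order (edgeR adjusted p = 0.0318, 0.0229, 0.0374 and 0.0445). DESeq2 called all 4 and limma-voom called 0. Without WT replicate 1, 2 or 3, or without DLK2-OE1 replicate 1, edgeR called 0 of this list. The summed FPKM of the 10 genes, which SEP3 led in WT, was 10.3 to 52.5 in DLK2-OE1 and overlapped the 9.76 to 33.8 of WT. CLV3 was listed at 0 in all libraries. WUS, CUC1, CUC2, LFY and AP1 were not tested and averaged at most 0.599 FPKM in either genotype. Mesophyll genes summed to between 36433 and 59922 FPKM in DLK2-OE1 and between 50027 and 61609 FPKM in WT, with log2 fold changes between -0.63 and -0.27 for all 8. Of these 0 passed in edgeR or DESeq2, and an unadjusted p under 0.05 was reached by 0 in edgeR and by 4 in DESeq2. Root genes summed to at most 0.147 FPKM, with PLT1, EXPA7 and RHD6 listed at 0 throughout.

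Of the 58 auxin genes, 55 had enough counts to be tested, and 7 differed between DLK2-OE1 and WT. IAA4, IAA19, TIR1, AFB1 and LAX2 rose, while TAA1 and DAO1 fell. These 7 are 12.7% of the tested auxin genes, against 3.69% of all 18155 genes tested. By direction the count was 5 higher and 2 lower, where 2.12% of all genes were higher and 1.58% lower. The median log2 fold change of the 55 genes was 0.24, with 39 positive and 16 negative, whereas the median of all genes was 0.004. The groups did not overlap for 15 auxin genes (27.3%), against 15.2% of all genes. Of the 15, 11 were higher in DLK2-OE1 and 4 lower (DAO1, PIN4, TAA1 and YUC6), where 7.87% of all genes were higher without overlap and 7.29% lower. An unadjusted p under 0.05 was reached by 28 of the 55 (50.9%), against 26.3% of all genes. The auxin genes and the marker lists were chosen with earlier results of these data known. The shares set beside all genes, here and for the marker lists, are therefore descriptions and not tests.

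The 7 calls had adjusted p-values between 0.02 and 0.0462 in edgeR, and most were close to the threshold. All 7 kept their direction when each library was left out in turn. None passed without WT replicate 1 (adjusted p from 0.0758 to 0.129, with 0.0705% of all genes called), without WT replicate 2 (0.0549 to 0.0964, with 0.639% called), without WT replicate 3 (0.0893 to 0.149, with 0 genes called and 3599 at an unadjusted p under 0.05) or without DLK2-OE1 replicate 1 (0.0747 to 0.135, with 0.0767% called). Without DLK2-OE1 replicate 2, where 1.27% of all genes were called, IAA4 and TIR1 passed. Without WT replicate 4 (2.73% called), IAA4, IAA19, TIR1, AFB1 and DAO1 passed and LAX2 and TAA1 did not. Without DLK2-OE1 replicate 3 all 7 and IAA27 and ARF8 passed (9 auxin genes, 7.47% of all genes called), and without DLK2-OE1 replicate 4 the count was 19 (11.9% called).

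Other tools moved the count with the background. DESeq2 called 24 of the 55, all 7 among them, where it called 14.4% of all genes. By limma-voom IAA4 and TIR1 passed, where 1.46% of all genes did, and by limma-trend on log2 FPKM 4 passed with a pseudocount of 1 (1.72% of all genes) and 5 with a pseudocount of 0.1 (2.12% of all genes). The limma-trend calls were IAA4, IAA7, IAA14 and TIR1 with the first pseudocount, and IAA19 as well with the second, so 2 and 3 of them were among the 7. All of these calls were higher in DLK2-OE1. On these FPKM scales the median of all genes was itself shifted upward in DLK2-OE1, by 0.12 and 0.13 in log2. IAA4 and TIR1 were among the calls of each of these tools. With DESeq2 size factors (3.65% called), no filter (2.95%) or a minimum of 10 counts (3.64%), edgeR called the same 7.

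**Figure D1:**
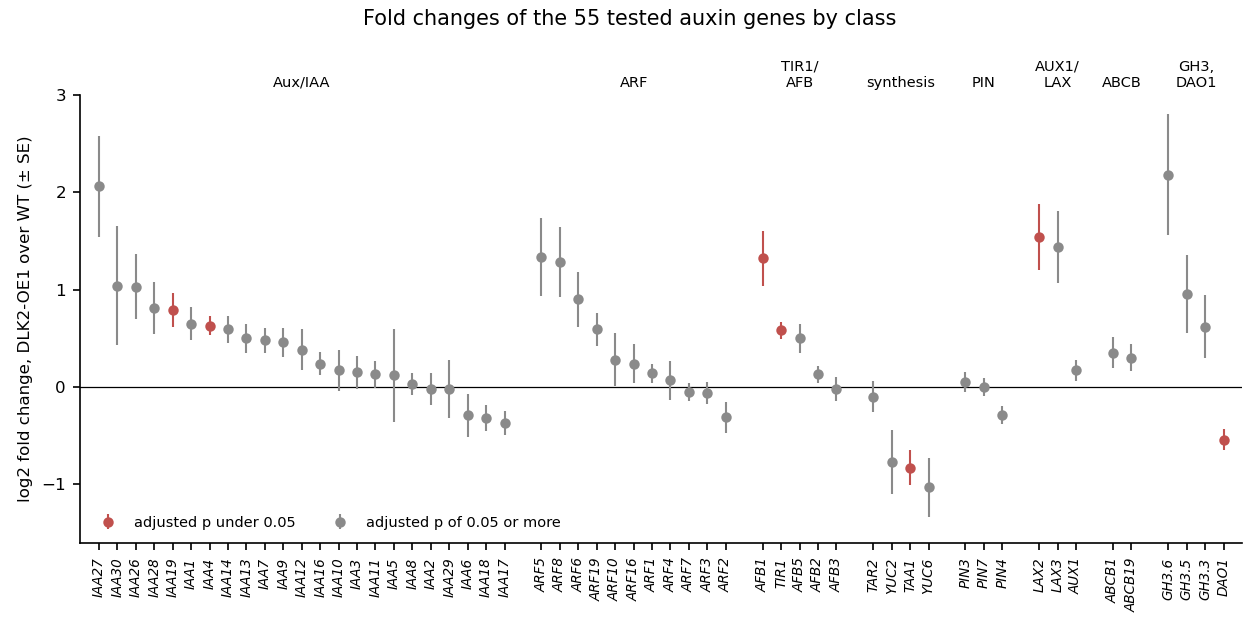
Log2 fold change of DLK2-OE1 over WT for the 55 tested auxin genes, grouped by class and ordered within it; points are edgeR estimates from 4 libraries per genotype, bars are ± SE, and red marks an adjusted p under 0.05. The values run from -1.03 (YUC6) to 2.18 (GH3.6), and all 4 tested synthesis genes lie below 0, although TAR2 turns positive on the FPKM scale.

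The genes of auxin synthesis were the class with the lowest median, -0.80 on the log2 scale. TAA1 (AT1G70560, plus strand, chr1:26604855-26607652 on the TAIR10.1 assembly, which all positions here refer to, 5 exons), the aminotransferase that makes indole-3-pyruvate, had 4.61, 3.26, 5.04 and 4.12 CPM in the DLK2-OE1 libraries, compared with 5.96, 8.06, 8.35 and 7.81 CPM in WT. Every DLK2-OE1 library lay below every WT library, and TAA1 fell by 0.83 on the log2 scale (SE 0.18; edgeR adjusted p = 0.0438). YUC6, one of the monooxygenases of the next step, had 1.15, 1.03, 0.751 and 0.564 CPM in DLK2-OE1, compared with 1.47, 2.16, 1.99 and 1.58 CPM in WT. Its groups did not overlap either, at a difference of -1.03 on the log2 scale (SE 0.30), but the edgeR adjusted p was 0.074. DESeq2 called YUC6 lower and limma-voom did not.

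YUC2, another monooxygenase of this step, had 3.66, 2.36, 5.68 and 8.24 CPM in DLK2-OE1, compared with 7.78, 8.69, 9.39 and 7.96 CPM in WT. Replicates 1 to 3 of DLK2-OE1 were below all WT libraries and replicate 4 was inside the WT range (log2 fold change -0.77, SE 0.33; edgeR adjusted p = 0.174). TAR2, a paralog of TAA1, did not pass, at 7.33 ± 1.11 CPM in DLK2-OE1 and 7.86 ± 1.21 CPM in WT (SD, n = 4 for each; edgeR adjusted p = 0.719), and its log2 fold change of -0.10 turned positive on the FPKM scale. YUC1 and YUC4 were hardly detected, at no more than 0.30 CPM in any library, and were not tested. By level, TAR2 held 43.3% ± 3.48 of the class's summed FPKM in DLK2-OE1 and 32.4% ± 2.18 in WT, and TAA1 held 27.4% ± 2.9 in DLK2-OE1 and 33.5% ± 2.62 in WT (SD, n = 4 for each). TAA1 and TAR2 were thus near each other in WT and apart in DLK2-OE1. The 6 genes summed to 9.83 to 12.4 FPKM in DLK2-OE1 and 13.1 to 17.2 FPKM in WT. Of the YUC genes on the further list, YUC9 alone averaged 12.3 FPKM in DLK2-OE1 and 16.9 FPKM in WT, and YUC8 averaged 6.08 FPKM in DLK2-OE1 and 9.21 FPKM in WT (n = 4 for each).

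**Figure D2:**
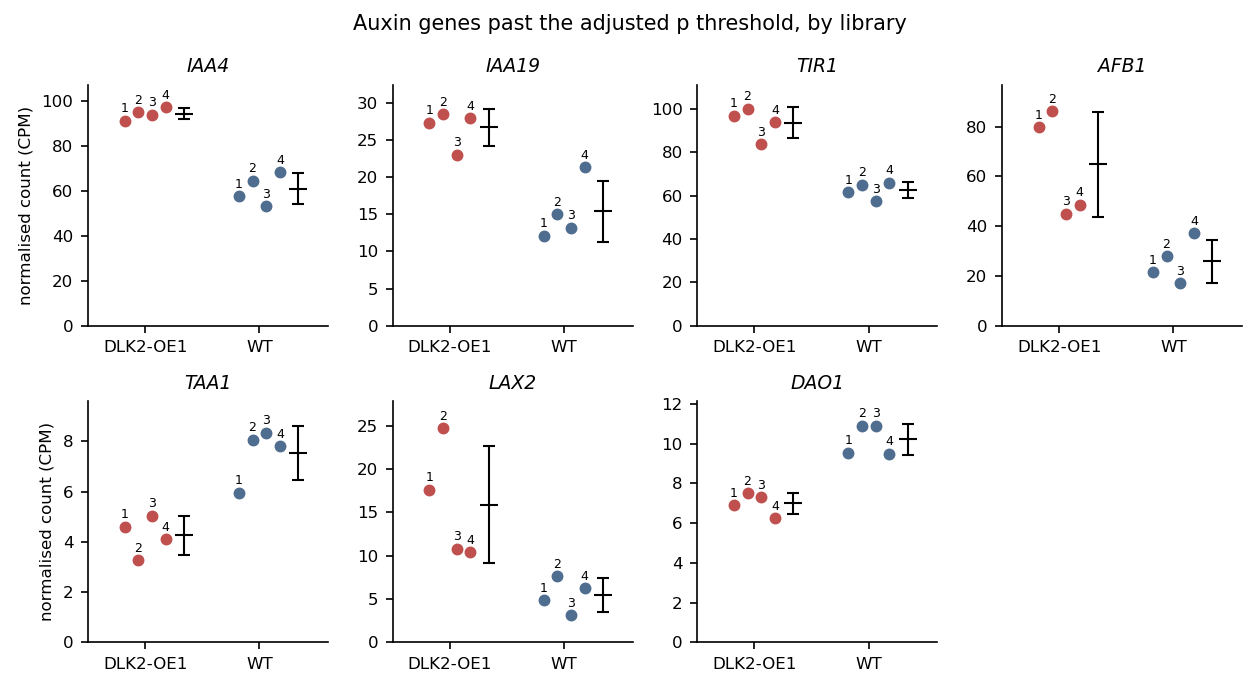
Normalised counts (CPM, linear axes from 0) of the 7 auxin genes past an adjusted p of 0.05; each point is a library, labelled with its replicate number, and the bar beside each group is the mean ± SD (n = 4). IAA4, TIR1 and DAO1 are even across the DLK2-OE1 libraries, whereas LAX2 is highest in replicate 2 and next in replicate 1.

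Among the inactivating enzymes DAO1 had a negative log2 fold change and the 3 GH3 genes positive ones, and only DAO1 passed in edgeR. DESeq2 called DAO1 lower and GH3.6 higher, and limma called 0. DAO1 (AT1G14130, minus strand, chr1:4835724-4837771, 3 exons) encodes the dioxygenase that oxidises auxin. It had 6.91, 7.51, 7.29 and 6.26 CPM in DLK2-OE1, compared with 9.55, 10.9, 10.9 and 9.49 CPM in WT, with no overlap and little spread within either genotype. DAO1 fell by 0.54 on the log2 scale (SE 0.11; edgeR adjusted p = 0.0433).

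The GH3 enzymes conjugate auxin to amino acids, mainly aspartate, and their genes are classic early auxin responders. GH3.6 had 120, 169, 54.9 and 29.4 CPM in DLK2-OE1, compared with 24.6, 9.68, 9.44 and 38.7 CPM in WT. Its log2 fold change was 2.18 (SE 0.62; edgeR adjusted p = 0.0736), and DLK2-OE1 replicate 4 lay below WT replicate 4, so the groups overlapped. GH3.5 had 68.3, 85.3, 66.7 and 44.1 CPM in DLK2-OE1, compared with 23.5, 21.4, 21.9 and 70.1 CPM in WT. WT replicate 4 stood within the DLK2-OE1 range and the other WT libraries far below it, with a difference of 0.95 on the log2 scale (SE 0.40; edgeR adjusted p = 0.171). GH3.5 passed when that library was left out and in no other run, DESeq2 and limma included. Since that library alone reached the DLK2-OE1 range, the fit without it is no independent check. GH3.3 averaged 24.2 ± 10.6 CPM in DLK2-OE1 and 15.8 ± 4.9 CPM in WT (SD, n = 4 for each; edgeR adjusted p = 0.248). The coding sequences of GH3.5 and GH3.6 are 84.1% identical, so the split of reads between them is uncertain. GH3.6 made up 44.1% ± 13.1 of this class's summed FPKM in DLK2-OE1 and 22.7% ± 10.1 in WT (SD, n = 4 for each), while DAO1 made up 6.54% ± 2.71 in DLK2-OE1 and 20.6% ± 6.98 in WT.

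Of the influx carriers, which take auxin up into cells, AUX1, LAX2 and LAX3 had positive log2 fold changes, and LAX2 alone passed in edgeR. DESeq2 called LAX2 and LAX3 higher, and limma called 0. LAX2 (AT2G21050, plus strand, chr2:9034056-9036636, 6 exons), known from leaf vasculature, had 17.6, 24.7, 10.8 and 10.4 CPM in DLK2-OE1, compared with 4.84, 7.66, 3.18 and 6.22 CPM in WT. The lowest DLK2-OE1 library lay above the highest WT library, and replicates 2 and 1 were well above replicates 3 and 4. LAX2 rose by 1.54 on the log2 scale (SE 0.34; edgeR adjusted p = 0.0462). DLK2-OE1 replicates 1 and 2 are also the libraries with the highest summed cell cycle and xylem FPKM given above, and the part of those cells in the LAX2 result was not tested. In whole-leaf RNA, a change in the number of cells of a type and a change in RNA per cell cannot be told apart.

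LAX3, its closest relative here at 73% coding identity, had 19.1, 22.8, 12.4 and 8.35 CPM in DLK2-OE1, compared with 4.36, 4.13, 4.92 and 9.69 CPM in WT. The libraries of DLK2-OE1 took the same order as for LAX2 and only replicate 4 fell within the WT range (log2 fold change 1.44, SE 0.37; edgeR adjusted p = 0.0595). AUX1, the founding member, did not pass, at 144 ± 6.17 CPM in DLK2-OE1 and 128 ± 15.7 CPM in WT (SD, n = 4 for each; log2 fold change 0.17, SE 0.11; edgeR adjusted p = 0.347). By FPKM level AUX1 was still the main carrier in both genotypes, with 79.5% ± 7.41 of the summed FPKM of these 3 in DLK2-OE1 and 90.5% ± 2.18 in WT (SD, n = 4 for each). The fourth gene of the family, LAX1, was listed among the further auxin genes and had 63.0 ± 11.2 CPM in DLK2-OE1 and 69.5 ± 12.2 CPM in WT (SD, n = 4 for each; log2 fold change -0.14, SE 0.16; edgeR adjusted p = 0.598). At a mean of 32.6 FPKM in DLK2-OE1 and 32.7 FPKM in WT it was not scarce.

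The PIN efflux carriers set the direction of auxin flow by their place in the plasma membrane. None of PIN3, PIN4 and PIN7 passed in edgeR, where 1 had an unadjusted p under 0.05, and DESeq2 called PIN4. PIN4 had 61.8, 60.3, 65.2 and 69.6 CPM in DLK2-OE1, compared with 71.5, 82.3, 76.1 and 85.1 CPM in WT. Every DLK2-OE1 library lay below every WT library, by a small margin whose edgeR adjusted p was 0.0852 (log2 fold change -0.29, SE 0.09). For PIN3 and PIN7 the means of both genotypes lay closer together. PIN3 had 175 ± 5.65 CPM in DLK2-OE1 and 169 ± 15.2 CPM in WT (SD, n = 4 for each), and PIN7 had 88.5 ± 6.21 CPM in DLK2-OE1 and 88.8 ± 3.83 CPM in WT (SD, n = 4 for each; edgeR adjusted p = 0.778 and 0.981). On the FPKM scale PIN3 was the most abundant of these, at 50.4% ± 1.06 of their sum in DLK2-OE1 and 47.2% ± 1.64 in WT (SD, n = 4 for each).

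Neither ABCB transporter passed in edgeR, DESeq2 or limma. An unadjusted p under 0.05 was reached by 0 in edgeR and limma-voom, by 2 in DESeq2 and by 1 in limma-trend with either pseudocount. ABCB19, which exports auxin along the stem, had 313, 325, 314 and 254 CPM in DLK2-OE1, compared with 213, 250, 223 and 295 CPM in WT (log2 fold change 0.30, SE 0.14; edgeR adjusted p = 0.206). ABCB1 had 94.2, 98.3, 61.7 and 65.2 CPM in DLK2-OE1, compared with 64.3, 63.4, 58.5 and 64.2 CPM in WT (log2 fold change 0.35, SE 0.16; edgeR adjusted p = 0.196). For ABCB1, DLK2-OE1 replicates 1 and 2 were high and replicates 3 and 4 at the WT level. ABCB19 was the more abundant by FPKM, at 79.4% ± 3.15 of the pair in DLK2-OE1 and 79.7% ± 2.16 in WT (SD, n = 4 for each).

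**Figure D3:**
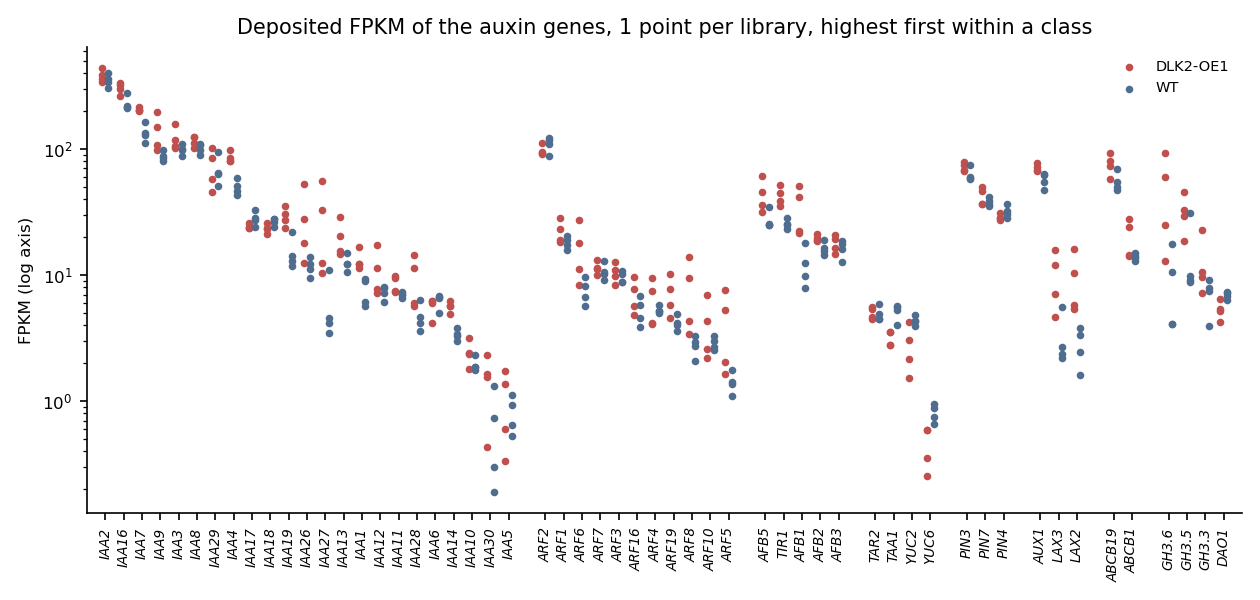
Deposited FPKM (log axis) of the 55 tested auxin genes, ordered within each class by mean level, with 1 point per library, DLK2-OE1 in red and WT in blue. Levels span 399-fold among the tested Aux/IAA genes but 2.09-fold among the receptors, and YUC6 is at the low end of its class.

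Of the auxin receptors, TIR1 and AFB1 rose and the other 3 did not pass in edgeR. DESeq2 called AFB5 higher as well, and limma called TIR1 alone. TIR1 (AT3G62980, minus strand, chr3:23273065-23276630, 3 exons), the first receptor described, had 96.8, 100, 83.5 and 93.9 CPM in DLK2-OE1, compared with 61.7, 65.0, 57.4 and 65.9 CPM in WT. The groups were far apart and each was tight, with a difference of 0.58 on the log2 scale (SE 0.09; edgeR adjusted p = 0.0205). AFB1 (AT4G03190, minus strand, chr4:1404887-1407402, 3 exons), a receptor linked to rapid responses in roots, had 79.7, 86.3, 45.1 and 48.7 CPM in DLK2-OE1, compared with 21.7, 27.9, 17.2 and 37.2 CPM in WT. It rose by 1.32 on the log2 scale (SE 0.28; edgeR adjusted p = 0.0438), again with replicates 1 and 2 above replicates 3 and 4.

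AFB5, the receptor best known for picloram binding, had 104, 125, 88.8 and 81.4 CPM in DLK2-OE1, compared with 66.5, 65.9, 64.7 and 85.3 CPM in WT, and only WT replicate 4 reached the DLK2-OE1 range (log2 fold change 0.50, SE 0.15; edgeR adjusted p = 0.0864). AFB2 averaged 44.7 ± 3.27 CPM in DLK2-OE1 and 40.9 ± 3.66 CPM in WT, and AFB3 averaged 37.4 ± 2.44 CPM in DLK2-OE1 and 38.0 ± 5.52 CPM in WT (SD, n = 4 for each; edgeR adjusted p = 0.41 and 0.918). AFB1 took 20.9% ± 4.17 of the receptors' summed FPKM in DLK2-OE1 and 12.1% ± 2.63 in WT, while AFB3 took 11.4% ± 1.05 in DLK2-OE1 and 16.7% ± 1.9 in WT (SD, n = 4 for each). In WT AFB1 had the lowest mean level of the 5, and in DLK2-OE1 the lowest was AFB3, with AFB2 and AFB3 within their SD of each other in both genotypes. The coding sequences of AFB2 and AFB3 are 81.9% identical, so the split of reads between them is uncertain.

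TIR1, AFB2 and AFB3 are known targets of miR393, a microRNA that trims receptor transcripts, so the stretch that pairs with it is shown for the 4 genes in which it is best kept. The miR393a-5p sequence, written as DNA with its seed (bases 2 to 8) in capitals, comes from the plus strand at chr2:16652111-16652132. In the target sites, read 5′ to 3′ on the coding strand, capitals mark bases that differ from a perfect complement of the microRNA.
miR393a-5p: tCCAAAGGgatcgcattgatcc
TIR1 site, chr3:23273727-23273748, minus strand: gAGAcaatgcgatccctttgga
AFB1 site, chr4:1405341-1405362, minus strand: gAGAcCatgcgatccctttgga
AFB2 site, chr3:9870237-9870258, plus strand: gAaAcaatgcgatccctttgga
AFB3 site, chr1:4369085-4369106, minus strand: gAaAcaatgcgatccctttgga
AFB2 and AFB3 shared the same letters with 2 mismatches, TIR1 had 3 and AFB1 had 4. Counted from 1 at the 5′ end of the site, with the perfect complement first, TIR1 and AFB1 shared G2A, A3G and T4A, and AFB1 alone added A6C. The best match in AFB5 had 8 mismatches. The receptors that rose were the pair with 3 and 4 mismatches. The level of miR393 itself was not analysed here, and the reading of the sites is a description only.

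The Aux/IAA repressors were the largest class, and IAA4 and IAA19 were the 2 of 23 tested that rose in edgeR (8.7%, against 2.12% of all genes). None fell. DESeq2 called 10 higher, where it called 14.4% of all genes. Limma-voom called 1, and limma-trend called 3 and 4 with pseudocounts of 1 and 0.1. The class had a median log2 fold change of 0.38, with 18 values positive and 5 negative. Wholly above WT lay 7 genes (30.4%, against 7.87% of all genes), namely IAA1, IAA4, IAA7, IAA9, IAA13, IAA14 and IAA19. None lay wholly below, where 7.29% of all genes did. IAA4 (AT5G43700, plus strand, chr5:17550179-17551715, 3 exons), an auxin-inducible repressor, had 91.5, 95.1, 94.1 and 97.4 CPM in DLK2-OE1, compared with 57.7, 64.7, 53.5 and 68.6 CPM in WT. The 4 DLK2-OE1 libraries lay within 1.06-fold of each other and all above WT, at a difference of 0.63 on the log2 scale (SE 0.10; edgeR adjusted p = 0.02). IAA19 (AT3G15540, plus strand, chr3:5264001-5265695, 3 exons), which is induced by auxin and acts in growth and tropic bending, had 27.3, 28.4, 23.0 and 27.9 CPM in DLK2-OE1, compared with 12.1, 15, 13.2 and 21.3 CPM in WT. WT replicate 4 came close to DLK2-OE1 replicate 3 without reaching it, and IAA19 rose by 0.79 on the log2 scale (SE 0.17; edgeR adjusted p = 0.0449).

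Several Aux/IAA genes came just short of the threshold. IAA14, the repressor that blocks lateral root initiation when stabilised, had 7.81, 6.99, 9.33 and 7.56 CPM in DLK2-OE1, compared with 4.72, 5.50, 5.17 and 5.66 CPM in WT. Its groups did not overlap, but the edgeR adjusted p was 0.0501 (log2 fold change 0.59, SE 0.14). DESeq2 called it, as did limma-trend on the upward-shifted FPKM scale, and limma-voom did not. IAA14 is 80.2% identical in coding sequence to IAA7, which averaged 241 CPM in DLK2-OE1 and 173 CPM in WT. Reads of IAA7 may therefore have been counted for IAA14. IAA1, the neighbour of IAA14 on chromosome 4, had 9.52, 11.6, 9.54 and 10.8 CPM in DLK2-OE1, compared with 8.02, 5.21, 5.47 and 7.75 CPM in WT, also without overlap (log2 fold change 0.65, SE 0.17; edgeR adjusted p = 0.0628). The same limit holds for IAA1, which is 78.7% identical to IAA2 (341 CPM in DLK2-OE1 and 345 CPM in WT). IAA27 had the largest log2 fold change of the class, 2.06 (SE 0.52; edgeR adjusted p = 0.0591), but was uneven, with 40.8, 62.1, 16.7 and 14.5 CPM in DLK2-OE1, compared with 5.96, 6.63, 4.92 and 14.6 CPM in WT. There WT replicate 4 lay just above DLK2-OE1 replicate 4.

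The genes that pointed down did so weakly. IAA17, next to IAA3 on chromosome 1, averaged 25.1 ± 1.8 CPM in DLK2-OE1 and 32.4 ± 5.01 CPM in WT (SD, n = 4 for each; log2 fold change -0.37, SE 0.12; edgeR adjusted p = 0.101), the lowest value of the class. IAA3 had a log2 value of 0.15 (SE 0.17; edgeR adjusted p = 0.587), so this neighbouring pair differed in sign, although the sign of IAA3 turned when DLK2-OE1 replicate 3 was left out. The neighbours IAA2 and IAA7 on chromosome 3 also parted, with log2 fold changes of -0.02 (SE 0.16; edgeR adjusted p = 0.959) for IAA2 and 0.48 (SE 0.13; edgeR adjusted p = 0.0723) for IAA7, where the sign of IAA2 turned on the FPKM scale. IAA7, the repressor first found as AXR2, had 230, 206, 253 and 275 CPM in DLK2-OE1, compared with 168, 179, 146 and 199 CPM in WT, without overlap. DESeq2 called IAA7, as did limma-trend on the upward-shifted FPKM scale, and limma-voom did not.

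By level the class was led by a few genes in both genotypes. IAA2 had 378 ± 42.7 FPKM in DLK2-OE1 and 349 ± 39.7 FPKM in WT, IAA16 had 303 ± 30.4 FPKM in DLK2-OE1 and 231 ± 31.8 FPKM in WT, and IAA7 had 204 ± 5.74 FPKM in DLK2-OE1 and 134 ± 20.9 FPKM in WT (SD, n = 4 for each). FPKM were shifted upward in DLK2-OE1 by a median of 0.12 on the log2 scale over all genes, so differences are read from CPM. IAA4 held 5.26% ± 0.352 of the class's FPKM in DLK2-OE1 and 3.95% ± 0.238 in WT (SD, n = 4 for each), far below the leaders. IAA5, IAA10 and IAA30 stood near the bottom, at a mean of at most 2.44 FPKM in either genotype, and IAA20 had at most 0.10 CPM in any library and was not tested.

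The degron that auxin docks to the receptor is coded in most of these genes by a shared stretch, which is shown for both genes that rose, for IAA3, the closest relative of IAA4, and for IAA27, which had the largest log2 fold change of the class without passing. Capitals mark the codons found by the search motif GGNTGGCCNCCN, read in frame on the coding strand.
IAA4, chr5:17550740-17550769, plus strand: cagattgttGGATGGCCACCAgttagatct
IAA3, chr1:1129019-1129048, minus strand: cagattgttGGATGGCCACCAgttagatct
IAA19, chr3:5264307-5264336, plus strand: caggtggtgGGGTGGCCACCGgtttgttct
IAA27, chr4:14324654-14324683, minus strand: caagtggtgGGATGGCCACCAataagatca
The motif was found in 22 of the 24 Aux/IAA genes and not in IAA20 and IAA30, which are known as Aux/IAA proteins without the degron. IAA3 and IAA4 were identical over these 30 bases and 76.6% identical over the coding sequence, so reads of one may have been counted for the other. IAA3 had 110, 115, 187 and 131 CPM in DLK2-OE1, compared with 123, 112, 124 and 130 CPM in WT, with overlapping groups, whereas those of IAA4 did not overlap. How many reads these genes shared was not tested.

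None of the 11 tested ARF genes passed edgeR's test, and 4 had an unadjusted p under 0.05, where 26.3% of all genes did. These were ARF5, ARF6, ARF8 and ARF19, which DESeq2 called higher, while limma called 0. The median log2 fold change was 0.24, with 8 positive and 3 negative. ARF8, an activator that restrains fruit set and acts in flower and hypocotyl growth, had the lowest p. It had 25.0, 32.7, 12.5 and 10.2 CPM in DLK2-OE1, compared with 8.85, 10.2, 6.26 and 7.86 CPM in WT. DLK2-OE1 replicate 4 lay next to WT replicate 2, and the log2 fold change was 1.28 (SE 0.36; edgeR adjusted p = 0.0695). ARF5 (MONOPTEROS, which specifies veins and organ primordia) and ARF6, the partner of ARF8, had the same graded pattern, at log2 fold changes of 1.33 (SE 0.40; edgeR adjusted p = 0.0852) and 0.90 (SE 0.28; edgeR adjusted p = 0.0916).

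ARF2, a repressor that limits organ size and promotes leaf senescence, was by far the most abundant ARF and leaned the other way. It had 288, 262, 386 and 336 CPM in DLK2-OE1, compared with 322, 409, 425 and 419 CPM in WT (log2 fold change -0.31, SE 0.16; edgeR adjusted p = 0.238). It held 51.1% ± 9.66 of the ARF FPKM in DLK2-OE1 and 61.6% ± 2.68 in WT (SD, n = 4 for each), with replicates 1 and 2 the lowest in DLK2-OE1. ARF7, which with ARF19 drives lateral root formation, did not pass, at 46.6 ± 1.59 CPM in DLK2-OE1 and 48.4 ± 5.51 CPM in WT (SD, n = 4 for each; edgeR adjusted p = 0.75). ARF19 was 0.59 higher on the log2 scale (SE 0.17; edgeR adjusted p = 0.0734).

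The ARF transcripts are in addition sorted by microRNAs, with ARF6 and ARF8 known as targets of miR167 and ARF10, ARF16 and ARF17 (the last from the further list) of miR160, so these sites are shown beside their microRNAs. Capitals in a microRNA mark its seed and capitals in a site mark bases that differ from the perfect complement.
miR167a-5p, chr3:8108090-8108110, plus strand: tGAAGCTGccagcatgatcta
ARF6 site, chr1:10686478-10686498, minus strand: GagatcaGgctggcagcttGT
ARF8 site, chr5:14633841-14633861, plus strand: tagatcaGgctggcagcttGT
miR160a-5p, chr2:16340282-16340302, plus strand: tGCCTGGCtccctgtatgcca
ARF10 site, chr2:12115741-12115761, plus strand: AggAatacagggagccaggca
ARF16 site, chr4:14704141-14704161, minus strand: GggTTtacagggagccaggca
ARF17 site, chr1:29274189-29274209, plus strand: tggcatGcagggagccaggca
ARF8 differed from the complement of miR167a-5p by 3 bases and ARF6 by 4, while no other of the 11 genes came under 7. ARF10 differed from the complement of miR160a-5p by 2 bases and ARF16 by 3, and the others of the 11 by at least 8. ARF17 came closest to it, with 1 base. The miR167 pair had log2 fold changes of 0.90 and 1.28, against 0.28 (SE 0.27) for ARF10 and 0.24 (SE 0.20) for ARF16, and none of the 4 passed (edgeR adjusted p = 0.0916, 0.0695, 0.533 and 0.458 for ARF6, ARF8, ARF10 and ARF16). ARF17 had 5.76, 6.78, 5.41 and 7 CPM in DLK2-OE1, compared with 9.67, 7.37, 7.60 and 7.55 CPM in WT, so it lay below WT without overlap and did not pass (log2 fold change -0.37, SE 0.15; edgeR adjusted p = 0.154).

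The genes described above differed in how the DLK2-OE1 libraries ranked, and the patterns named here were read from the values. In an even pattern all DLK2-OE1 libraries were alike, with the highest library above the lowest by 1.06-fold for IAA4, 1.20-fold for TIR1, 1.23-fold for IAA19, 1.20-fold for DAO1 and 1.55-fold for TAA1. In a graded pattern replicate 2 was highest and replicate 1 next, with a span of 5.76-fold for GH3.6, 4.29-fold for IAA27, 3.64-fold for ARF5, 3.2-fold for ARF8, 2.38-fold for LAX2 and 1.91-fold for AFB1. No fixed span or order separated the patterns. TIR1 also had replicate 2 highest and replicate 1 next, over its small span. The 1.55-fold of TAA1 was close to the 1.59-fold of IAA9 and of IAA13, which had the graded order. Of the 9 genes with a log2 fold change of at least 1, 8 had replicates 1 and 2 as the highest DLK2-OE1 libraries, the exception being IAA30. Other genes had replicates 1 and 2 as the lowest DLK2-OE1 libraries, among them YUC2 and ARF2, given above, and IAA29. IAA29 had 53.0, 37.1, 102 and 87.5 CPM in DLK2-OE1, a span of 2.76-fold, compared with 53.7, 69.5, 66.6 and 93.1 CPM in WT (log2 fold change -0.02, SE 0.30; edgeR adjusted p = 0.98).

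Both orders were common among all genes. Replicate 2 was the highest DLK2-OE1 library for 31 of the 55 auxin genes (56.4%) and for 38% of all genes tested, and replicates 1 and 2 were both above replicates 3 and 4 for 27 auxin genes (49.1%) and for 36.4% of all genes. The reverse, with replicates 1 and 2 both below replicates 3 and 4, was seen for 13 auxin genes (23.6%) and for 32% of all genes. With both of these libraries left out, the log2 fold changes were 0.66 for IAA4, 0.52 for TIR1, 0.73 for IAA19, 0.96 for LAX2, 0.86 for AFB1, -0.71 for TAA1 and -0.58 for DAO1. Since the patterns were read from these libraries, the even genes moving less than the graded ones in that fit follows from how they were sorted. No auxin gene passed edgeR's test in that fit, where 0.328% of all genes did and 2696 had an unadjusted p under 0.05. The cell cycle and xylem sums followed the same order of libraries. The shoot apex and flower sum was also highest in replicates 2 and 1, at 30.1, 52.5, 10.3 and 13.5 FPKM in DLK2-OE1 replicates 1 to 4. Whether the libraries differed in cell types, and the part of any such difference in the graded genes, was not tested.

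**Figure D4:**
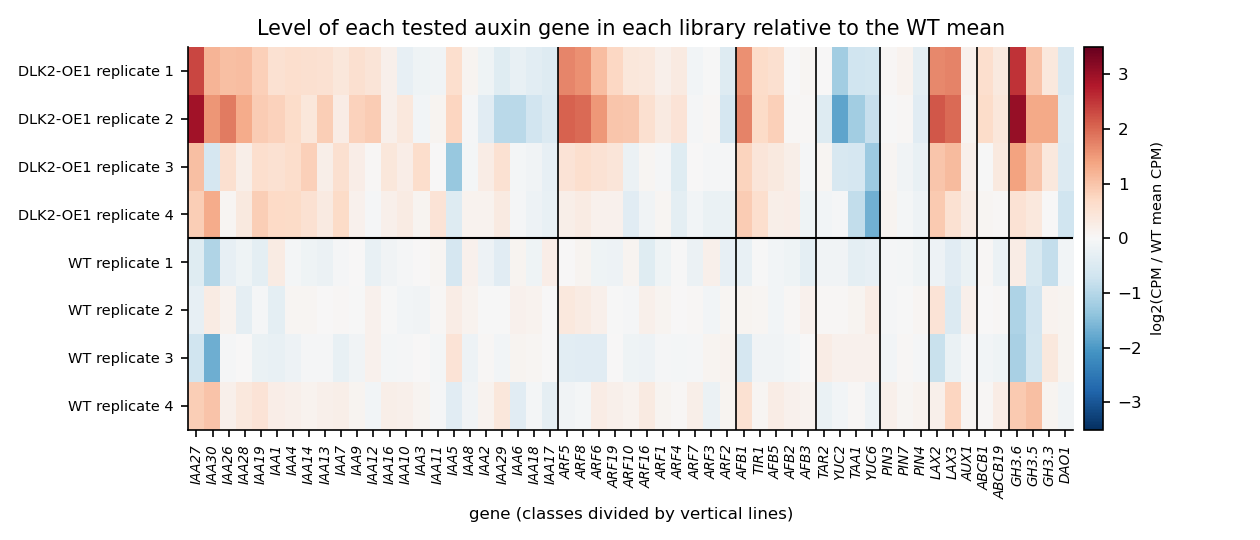
Level of each of the 55 tested auxin genes in each library, as log2 of CPM over the WT mean, with DLK2-OE1 libraries in the upper 4 rows and WT libraries in the lower 4; red is above and blue below the WT mean, and vertical lines divide the classes. GH3.6 and IAA27 are darkest in DLK2-OE1 replicates 1 and 2, while IAA4 and TIR1 are equally tinted in all 4.

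WT replicate 4 also stood apart from the other WT libraries in these genes. It was the highest WT library for 32 of the 55 auxin genes (58.2%), against 31.2% of all genes tested. GH3.5, GH3.6, IAA27, LAX3 and AFB5 were among them, and each overlapped the DLK2-OE1 range only through that library. The summed FPKM of the 58 genes was 2424, 2746, 2363 and 2122 in the DLK2-OE1 libraries, against 1688, 1801, 1757 and 2158 in WT, so WT replicate 4 lay just above DLK2-OE1 replicate 4.

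Many auxin-induced promoters carry the auxin response element TGTCTC, or the variant TGTCGG, which ARF proteins bind. In the window from 250 bases before to 50 bases after the gene start, searched on both strands, TGTCTC was found in 15 of the 58 auxin genes (25.9%) and in 14.2% of 27443 genes with such a window. TGTCGG was found in 9 of the 58 (15.5%) and in 5.12% of all. Of the 7 genes that differed, IAA19 alone held TGTCTC and none held TGTCGG. IAA19 had 3 copies, the most of any auxin gene here, and its window is therefore shown, with the copies in capitals.
IAA19 promoter, chr3:5263751-5264050, plus strand: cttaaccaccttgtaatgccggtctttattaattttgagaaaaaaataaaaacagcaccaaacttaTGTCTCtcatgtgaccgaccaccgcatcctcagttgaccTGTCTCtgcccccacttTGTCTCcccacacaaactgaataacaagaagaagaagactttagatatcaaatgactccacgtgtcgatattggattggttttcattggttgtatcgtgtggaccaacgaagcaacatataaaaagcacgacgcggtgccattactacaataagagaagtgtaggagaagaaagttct
A match is a string of letters in this window and not a measured binding site.

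A further 68 auxin genes, listed beside these from the same families and from the PILS carriers, AGC kinases, TOPLESS co-repressors, conjugate hydrolases and SAUR growth genes, were measured as well. Of them 41 were tested, 0 passed edgeR's test, and 12 had an unadjusted p under 0.05 (29.3%, against 26.3% of all genes). DESeq2 called 7 (3 higher and 4 lower; 17.1%, against 14.4% of all genes) and limma 0. By edgeR with 1 library left out, the count ran from 0 to 6, with 6 when replicate 4 of DLK2-OE1 was omitted and 5 when its replicate 3 was. With no filter WAG2, an AGC kinase gene, passed (adjusted p = 0.0388), on 23, 26, 11 and 5 counts in DLK2-OE1, compared with 0, 0, 0 and 2 counts in WT. Their median log2 fold change was -0.14, with 17 positive and 24 negative, and the groups did not overlap for 7 (17.1%, against 15.2% of all genes; 2 higher and 5 lower in DLK2-OE1). The PILS genes, whose products hold auxin at the endoplasmic reticulum, had negative values in 5 of 5 tested members with a median of -0.65. PILS3 had 52.4, 49.6, 84.8 and 71.9 CPM in DLK2-OE1, compared with 92.9, 104, 107 and 102 CPM in WT, without overlap (log2 fold change -0.65, SE 0.17; edgeR adjusted p = 0.0616). PILS5 had 5.31, 6.31, 7.08 and 4.57 CPM in DLK2-OE1, compared with 27.3, 7.71, 9.69 and 35.8 CPM in WT, again without overlap (log2 fold change -1.79, SE 0.47; edgeR adjusted p = 0.0627). The monooxygenase genes YUC5, YUC8 and YUC9 pointed the same way as the synthesis genes above, at log2 fold changes of -0.66, -0.70 and -0.59, and none passed (edgeR adjusted p from 0.197 to 0.262). The 6 SAUR genes tested, which include members of the SAUR19 subfamily, ranged from -0.02 to 0.84 and did not pass.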

How the data were processed

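The deposited tables list, per the file headers, counts (whole numbers) and FPKM for each gene and library. Steps before that are known only from the submitters' processing notes, which name the TAIR10 build, HISAT2, RSEM, DESeq2 and edgeR without versions, and StringTie 1.3.1, Bowtie2 2.2.8 and fastp 0.18.0. Neither strand setting nor annotation release was found in the labels, so overlapping antisense genes and close paralogs are uncertain.

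The counts were tested in edgeR 4.0.16 (R 4.3.3): TMM scaling after filterByExpr, estimateDisp, robust glmQLFit and glmQLFTest on genotype, 18155 genes, Benjamini-Hochberg, threshold 0.05. SE is the size of the log2 fold change over √F. CPM are TMM-normalised; levels between genes use FPKM. The common biological coefficient of variation was 0.222. The procedure was tested on simulated data.

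As alternatives, libraries were left out, a replicate block was added, size factors of DESeq2 and other filters (none; 10 counts in 4 libraries) were used, and DESeq2 1.42.0 and limma 3.58.1 (voom; trend on the log2 of FPKM plus 1 or 0.1, where 4 libraries reached an FPKM of 1) replaced edgeR. The labels pair no libraries.

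Of the 59 genes of the rule, 1 is not reported here. The genes, lists and tests were chosen with earlier results of these data known. Genes described are those past the threshold, the most abundant and the lowest-p gene of each class, all genes of the small classes and the Aux/IAA neighbours; other Aux/IAA and ARF genes, and PILS3, PILS5, LAX1, ARF17, WAG2 and the YUC genes of the further list, were named after their values were seen.

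Coordinates and sequences were read from TAIR10.1 (RefSeq) with the first gene model of each locus; the deposited tables hold no coordinates. Coding identity was computed with Biopython 1.88 in place of protein identity.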

Additional observations from a re-analysis of the deposited data

Results flagged for a closer look

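In groups of 4 libraries, 6 of the 62 groups examined had a library that stood far from the other 3 by Dixon's criterion, where chance gives about 1 in 20 groups. ABCB19 had 254 CPM in DLK2-OE1 replicate 4, against 313 to 325 CPM in the other DLK2-OE1 libraries. The other 5 were in WT. WT replicate 4 was high for GH3.5 with 70.1 CPM (the others 21.4 to 23.5 CPM), for LAX3 with 9.69 CPM (the others 4.13 to 4.92 CPM) and for AFB5 with 85.3 CPM (the others 64.7 to 66.5 CPM). WT replicate 1 was low for ARF2 with 322 CPM (the others 409 to 425 CPM). WT replicate 3 was low for ABCB1 with 58.5 CPM (the others 63.4 to 64.3 CPM).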

How the results depend on the processing

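The 7 auxin genes kept their direction in every alternative run. DESeq2 size factors, no filter and a minimum of 10 counts left 7 calls (5 higher, 2 lower). DESeq2 called 24 auxin genes (20 higher, 4 lower) and 2621 of all genes, limma-voom 2 (2 higher, 0 lower; 265 of all), limma-trend on log2(FPKM + 1) 4 (4 higher, 0 lower; 288) and on log2(FPKM + 0.1) 5 (5 higher, 0 lower; 355). Leaving out 1 library gave from 0 to 19 auxin calls (0 to 16 higher, 0 to 3 lower) and from 0 to 2191 of all genes; the 0 was edgeR's without WT replicate 3, where 3599 genes had an unadjusted p under 0.05. Without DLK2-OE1 replicates 1 and 2 together the counts were 0 (0 higher, 0 lower) and 60.

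The replicate block called 3 auxin genes (IAA4, TIR1 and LAX2; 3 higher, 0 lower) and 245 of all genes (1.35%). Deviations of same-numbered libraries correlated at -0.03, 0.06, 0.12 and -0.10, and 1 of the 4 numbers matched best, so the block is given here only.

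Over 31 named genes, 422 values kept direction and side of the threshold, 60 lost and 22 gained significance, and 21 turned sign, all for genes near 0. These were IAA2 (0.11 on both FPKM scales, -0.13 to 0.09 with 1 library left out, 0.21 without DLK2-OE1 replicates 1 and 2), IAA3 (-0.04 to 0.24 with 1 library left out), AFB3 (0.13 on both FPKM scales, -0.12 to 0.03 with 1 library left out), TAR2 (0.02 and 0.03 on the FPKM scales, 0.00 without DLK2-OE1 replicates 1 and 2) and PIN7 (0.14 on both FPKM scales, -0.05 to 0.03 with 1 library left out). The FPKM scales shift the median of all genes by 0.12 and 0.13.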

Other observations

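Of the further auxin genes that missed the edgeR threshold without overlap between the groups, 3 more had low adjusted p-values. PILS4, a relative of the PILS carriers given there, had 0.20, 0.215, 0.697 and 0.451 CPM in DLK2-OE1, compared with 2.06, 1.96, 2.19 and 0.714 CPM in WT (log2 fold change -2.15, SE 0.50; edgeR adjusted p = 0.0502). WT replicate 4 lay close to DLK2-OE1 replicate 3 and the other WT libraries far above. ARF11, a repressor-type ARF, had 12.0, 9.95, 19.7 and 15.3 CPM in DLK2-OE1, compared with 21.8, 27.8, 22.6 and 23.3 CPM in WT (log2 fold change -0.75, SE 0.20; edgeR adjusted p = 0.0628). PID2, an AGC kinase of the PINOID group, which phosphorylates PIN carriers, had 1.3, 1.07, 0.965 and 0.621 CPM in DLK2-OE1, compared with 0.236, 0.442, 0.298 and 0.459 CPM in WT (log2 fold change 1.44, SE 0.36; edgeR adjusted p = 0.0575). These genes were picked after their values were seen.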
